A study of Mus musculus with 6 samples.

Results

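Of the 30862 gene rows of the deposited table, 28 carry the symbols of p53 target genes and of core apoptosis genes, and all 28 were detected in every library and passed the filter on low counts. They were chosen by gene symbol: 17 targets of the transcription factor p53, the p53 gene Trp53 itself, and 10 genes of the caspase and Bcl2 machinery. RNA was sequenced from cultured cells labelled as mouse ovarian granulosa cells, the somatic cells around the oocyte, taken from 21-day-old ICR females. The 3 control libraries came from untreated cells (treatment tag WT, 0 µg/mL) and the 3 PS-MP libraries from cells that had adhered for 12 h and were then kept for 24 h with sonicated polystyrene particles (PS-MPs, 100 nm, 750 µg/mL). The labels number the libraries 1 to 3 within each group and call them biological replicates, with no word on separate animals or cultures. The p-values below therefore refer to library-to-library spread, and some of that spread may be technical.

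p53 is a transcription factor that is held low by the ubiquitin ligase Mdm2 and released by DNA damage, oncogene activity and other stress. It binds a pair of adjacent decamers in or near its target genes and drives cell cycle arrest, repair, death receptors and mitochondrial apoptosis; because it is controlled mainly at the level of the protein, its own mRNA is a poor guide to its activity. In the mitochondrial pathway, BH3-only proteins such as Puma and Noxa overcome the Bcl2-type guardians, Bax and Bak1 open the outer membrane, and released cytochrome c assembles Apaf1 and caspase 9. In the ovary this machinery is known for the granulosa cell death that accompanies follicle loss.

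The p53 elements near the transcription start sites of the targets are printed first. The GRCm39 sequence from 5000 bases before to 5000 bases after the GENCODE M39 canonical start site was searched for p53 elements. The form searched was 2 consensus decamers of 10 bases with no spacer, which reads as the same pattern on both strands. Decamers with bases between them were not searched for. At most 1 base was allowed outside the consensus, and none at the invariant C and G of each decamer. Sites are written 5′ to 3′ on the strand of the gene in lower case, with those invariant bases in capitals.
Zmat3, intron, chr3:32418480-32418499, minus strand, no base outside the consensus: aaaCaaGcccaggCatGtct
Zmat3, upstream at position -4411 from the start site, chr3:32424300-32424319, minus strand: gagCaaGtctgggCttGtta
Ccng1, upstream at position -170, chr11:40646289-40646308, minus strand: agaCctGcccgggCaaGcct
Ccng1, intron, chr11:40645763-40645782, minus strand: acgCaaGcccgggCtaGtct
Cdkn1a, upstream at position -2836, chr17:29309902-29309921, plus strand: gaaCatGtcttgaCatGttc
Gdf15, exon, chr8:71084616-71084635, minus strand: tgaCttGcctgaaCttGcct
Such an element lay in the windows of 4 of the 17 targets (23.5%), of 0 of the 10 core genes and of 261 of 13660 tested protein-coding genes (1.91%). The 17 genes were listed as p53 targets, so a higher share among them follows from that choice. It says nothing of the differences between libraries below. Within 2500 bases either side of the start site, the width used before the window was widened in view of its result, the counts were 3 targets, 0 core genes and 111 protein-coding genes. A match describes letters only. No match was found in the windows of Mdm2, Bax or Fas, and that says nothing about binding.

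The libraries held 56967176 to 70240738 estimated counts, and mitochondrially encoded genes took 2.13% to 2.41% of them. Markers of granulosa cells were mixed. Foxl2, which keeps granulosa identity, was at 0.0577 to 0.204 FPKM (fragments scaled to transcript length and to sequencing depth), Amh at 0.0554 to 0.253 and Inha at 0.723 to 1.20 FPKM, while Inhba, the inhibin beta A subunit, was at 87.5 to 146 FPKM and made up most of the sum of the 11 granulosa markers with a row (107 to 170 FPKM). Star and Fst were at 2.32 to 5.82 and 3.25 to 8.50 FPKM, and the steroidogenic Cyp11a1 did not exceed 0.0360 FPKM. Acta2, smooth muscle actin, was at 1406 to 2130 FPKM and the collagen gene Col1a1 at 459 to 968 FPKM. The leukocyte marker Ptprc was at 0 in 4 libraries and at 0.00288 FPKM or less in the others. The cells are therefore called cultured ovarian cells here.

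The 28 genes spanned a wide range of levels, given here as means over all 6 libraries. The highest were Ccng1, a cyclin G that recruits a phosphatase to Mdm2 (195 FPKM), Cdkn1a, the cell cycle inhibitor p21 (133 FPKM), and Phlda3, an inhibitor of Akt (121 FPKM). Bax followed at 73.7 FPKM and Mdm2 at 52.4 FPKM. The lowest targets were Perp, a membrane protein of cell junctions (1.74 FPKM), and Sesn1, a sestrin that restrains mTORC1 (2.69 FPKM). Among core genes Mcl1, a short-lived guardian of mitochondria, stood at 40.1 FPKM, Bcl2l1, which encodes Bcl-xL, at 35.1 FPKM and Bak1 at 30.1 FPKM. Bcl2, the founding member of that family, was the lowest of all 28 at 0.912 FPKM. The transcript of p53 itself stood at 38.7 FPKM, near that of Mcl1. Strand use in counting is not given: exons of other genes on the opposite strand cover 34.5% of the exon bases of Bid, 25.5% of Bak1, 17.3% of Gdf15, 14.3% of Btg2 and 12.5% of Cdkn1a, with at most 10.9% in the other members, and same-strand genes cover 10.3% of Bax. Cycs, cytochrome c, has 2 pseudogenes named after it in GENCODE and Trp53 has 1, and both levels are uncertain for that reason.

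**Figure D1:**
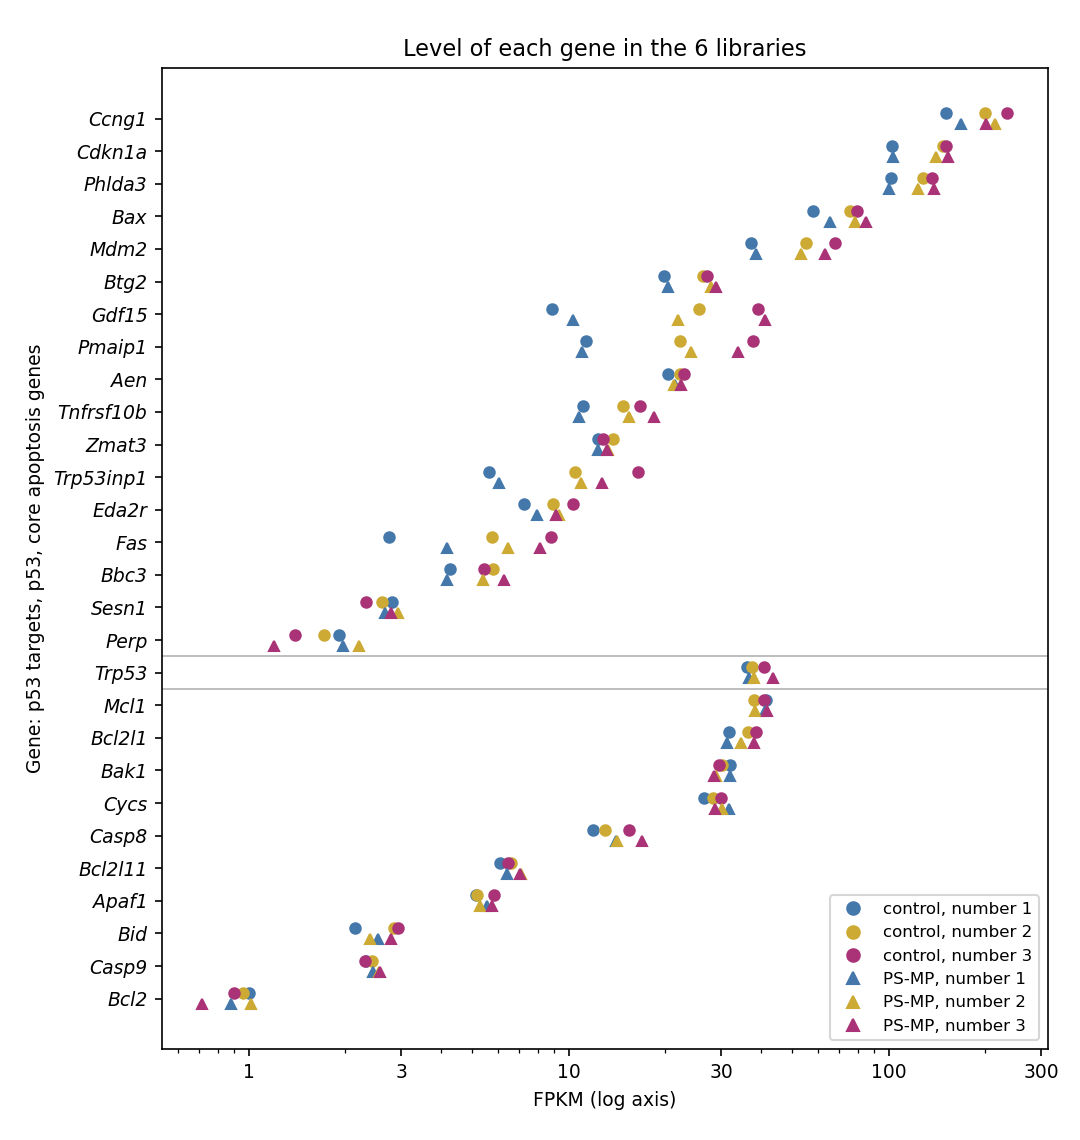
FPKM (log axis) of each of the 28 genes in each library, ordered by mean level within p53 targets, p53 and core apoptosis genes; circles are control, triangles PS-MP, and colours give the replicate number. Circles and triangles of 1 colour lie close together, and for most p53 targets the libraries numbered 1 lie lowest.

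The first comparison asked whether PS-MP altered these genes. No p53 target and no core apoptosis gene was called changed (adjusted p under 0.05 and at least 1.5-fold, edgeR's quasi-likelihood test with Benjamini-Hochberg adjustment): 0 of 28 members, against 0% of all 17186 tested genes, with an adjusted p of 1.00 for every member. At an unadjusted p under 0.05 there were 0 members, against 1.32% of all tested genes, and DESeq2 and limma-voom called 0 members too. In bulk RNA a change in the number of cells of a type and a change in RNA per cell cannot be told apart, and this holds for every difference below.

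The p53 targets lay near 0 in log2 fold change. Their median was -0.02, with 7 positive and 10 negative, beside a median of 0.00 over all tested genes. Cdkn1a was at 103, 148 and 152 FPKM in controls 1, 2 and 3 and at 103, 140 and 153 FPKM in PS-MP 1, 2 and 3. The groups thus overlapped, and same-numbered libraries lay side by side (log2 fold change -0.04 ± 0.19, SE; 95% interval -0.49 to 0.42). Gdf15, a stress hormone of the TGF-beta family, showed the widest interval (-0.02, -1.45 to 1.41), since its libraries ran from 8.86 to 40.9 FPKM within the groups. Btg2, an antiproliferative cofactor of mRNA decay, and Bax, the effector that opens the outer mitochondrial membrane, were the targets with the same sign in all 3 pairs of same-numbered libraries. The mean of Bax was 71.1 ± 11.5 FPKM without and 76.4 ± 9.94 FPKM with particles (SD over 3 libraries each), a log2 fold change of 0.09 ± 0.15 (SE).

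The core genes were as close to 0, with a median of 0.00, 5 positive and 5 negative. The largest values were those of Casp8, the initiator caspase of death receptors, and Bcl2. Casp8 was at 11.9, 13.0 and 15.4 FPKM in controls 1, 2 and 3 and at 14.0, 14.2 and 16.9 FPKM in PS-MP 1, 2 and 3. The PS-MP library was the higher one in each pair, but the groups overlapped (log2 fold change 0.14 ± 0.12, SE; adjusted p = 1.00, edgeR). With the replicate number as a block, Casp8 was the only member with an unadjusted p under 0.05 (0.15 ± 0.06, SE; adjusted p = 0.884, edgeR), against 4.94% of all tested genes in that fit, where 0 members and 0.00582% of all tested genes (1 gene) were called. Bcl2 was at 0.999, 0.960 and 0.900 FPKM in the controls and at 0.879, 1.02 and 0.716 FPKM in the PS-MP libraries. Its groups overlapped as well (-0.15 ± 0.16, SE). Casp9, the initiator caspase of the mitochondrial pathway, was at 2.33, 2.44 and 2.31 FPKM in the controls and at 2.44, 2.55 and 2.57 FPKM in the PS-MP libraries. All 3 PS-MP libraries thus lay above all controls in FPKM, by a small margin (log2 fold change 0.08 ± 0.09, SE; adjusted p = 1.00, edgeR). It was the only 1 of the 28 members whose groups did not overlap in FPKM, against 6.45% of all tested genes, and on the scale of TMM-normalised log2 CPM (counts corrected for library depth) there were 0, against 6.21%. The sign was the same in all 3 pairs for 2 of the 17 targets on both scales, and for 5 of the 10 core genes in CPM and 4 in FPKM, against 27.9% and 28.2% of all tested genes.

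The intervals of the fits refer to library-to-library spread and do not bound the effect in other animals or cultures. The 95% interval lay within 1.5-fold in both directions for 22 of the 28 members, for all 10 core genes and for 11 of the 17 targets. With the replicate number as a block it did so for all 28 members, since the median standard error of the targets was 0.06 in that fit and 0.19 without the block. The block treats same-numbered libraries as pairs, which the labels do not state. In the check of pairing, PS-MP 2 had a correlation of 0.21 with control 2 and of 0.38 with control 3. For Gdf15 the blocked log2 fold change was -0.00 ± 0.09 (SE), for Pmaip1, which encodes the BH3-only protein Noxa, -0.05 ± 0.06, and for Mdm2 -0.06 ± 0.05.

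**Figure D2:**
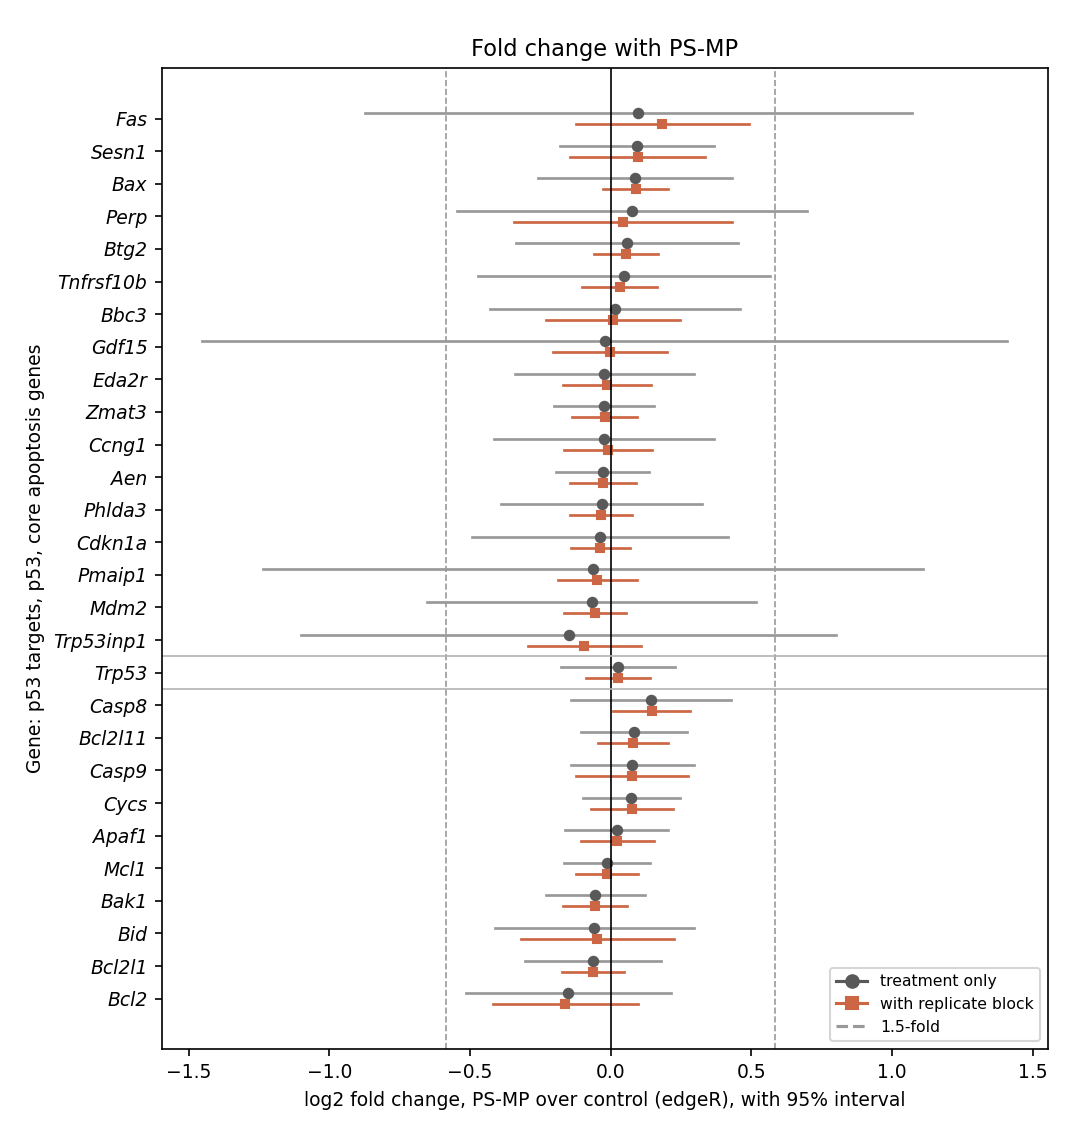
log2 fold change of PS-MP over control for each of the 28 genes with its 95% interval, from the fit with treatment only (grey) and with the replicate number as a block (orange); dashed lines mark 1.5-fold. All estimates lie between the dashed lines, and the grey intervals of 6 p53 targets cross them while no orange interval does.

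The targets did differ between the replicate numbers, in control and PS-MP cells alike. In a fit with treatment and replicate number as terms, 6 of the 17 targets were called different between the numbers (edgeR's quasi-likelihood F-test, adjusted p under 0.05 and at least 1.5-fold between some pair of numbers), and 0 of the 10 core genes. Over all 17186 tested genes 7.34% were called (1261 genes, or 749 without control 1 and 731 without PS-MP 1), and 7.24% of the 9297 genes with a mean above 10 CPM. All 6 were higher in the libraries numbered 3 than in those numbered 1, a direction called in 4.74% of all tested genes. The median log2 difference between numbers 3 and 1 was 0.46 over the targets and 0.07 over the core genes, against 0.00 over all tested genes. The same 6 targets were called with each library left out in turn. What the replicate numbers stand for is not given in the labels, so donor, culture, day and cell composition cannot be told apart.

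Gdf15 had the largest difference of the 28 members, followed by Pmaip1. Gdf15 was at 8.86 and 10.3 FPKM in control 1 and PS-MP 1, at 25.5 and 21.9 FPKM in the libraries numbered 2, and at 39.1 and 40.9 FPKM in those numbered 3. Both libraries of each number lay apart from the other numbers, with a fold of 4.17 between 3 and 1 (log2 2.06 ± 0.11, SE; adjusted p = 0.000233, edgeR). Pmaip1, whose protein Noxa neutralises Mcl1, was at 11.3 and 11.0 FPKM in the libraries numbered 1, at 22.2 and 24.1 FPKM in those numbered 2 and at 37.6 and 33.7 FPKM in those numbered 3. It too fell into 3 separate steps, with a fold of 3.18 between 3 and 1 (1.67 ± 0.08; adjusted p = 0.000197). Trp53inp1, a p53-induced protein of the nucleus that promotes apoptosis and autophagy, was at 5.63 and 6.04, at 10.5 and 10.9, and at 16.5 and 12.7 FPKM in numbers 1, 2 and 3. Its libraries numbered 3 stood apart from each other more than those of the other numbers (1.31 ± 0.11; adjusted p = 0.000886).

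Both death receptors among the members followed the same order. Fas, the receptor of Fas ligand, was at 2.75 and 4.18, at 5.76 and 6.44, and at 8.80 and 8.14 FPKM in the libraries numbered 1, 2 and 3, control first. Its lowest value, in control 1, lay well below that of PS-MP 1 (number 3 against 1: 1.31 ± 0.16, SE; adjusted p = 0.00519, edgeR). Tnfrsf10b, the mouse TRAIL receptor, was at 11.1 and 10.8, at 14.8 and 15.4, and at 16.7 and 18.4 FPKM (0.68 ± 0.07; adjusted p = 0.00219). Their ligands, Fasl and Tnfsf10, did not exceed 0.0274 and 0.0210 FPKM in any library and were not tested. Casp8, which acts below both receptors, differed less: its log2 difference between numbers 3 and 1 was 0.32 ± 0.07, below 1.5-fold.

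Mdm2, the ubiquitin ligase that is both target and inhibitor of p53, was at 37.1 and 38.4 FPKM in the libraries numbered 1, at 55.0 and 53.2 FPKM in those numbered 2 and at 67.9 and 63.0 FPKM in those numbered 3 (number 3 against 1: 0.79 ± 0.06, SE; adjusted p = 0.00064, edgeR). Trp53 itself was at 36.1 and 36.7, at 37.5 and 37.9, and at 40.6 and 43.4 FPKM. The p53 transcript was thus ordered in the same way over a much narrower range, and it did not pass the test (0.20 ± 0.06; adjusted p = 0.118).

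**Figure D3:**
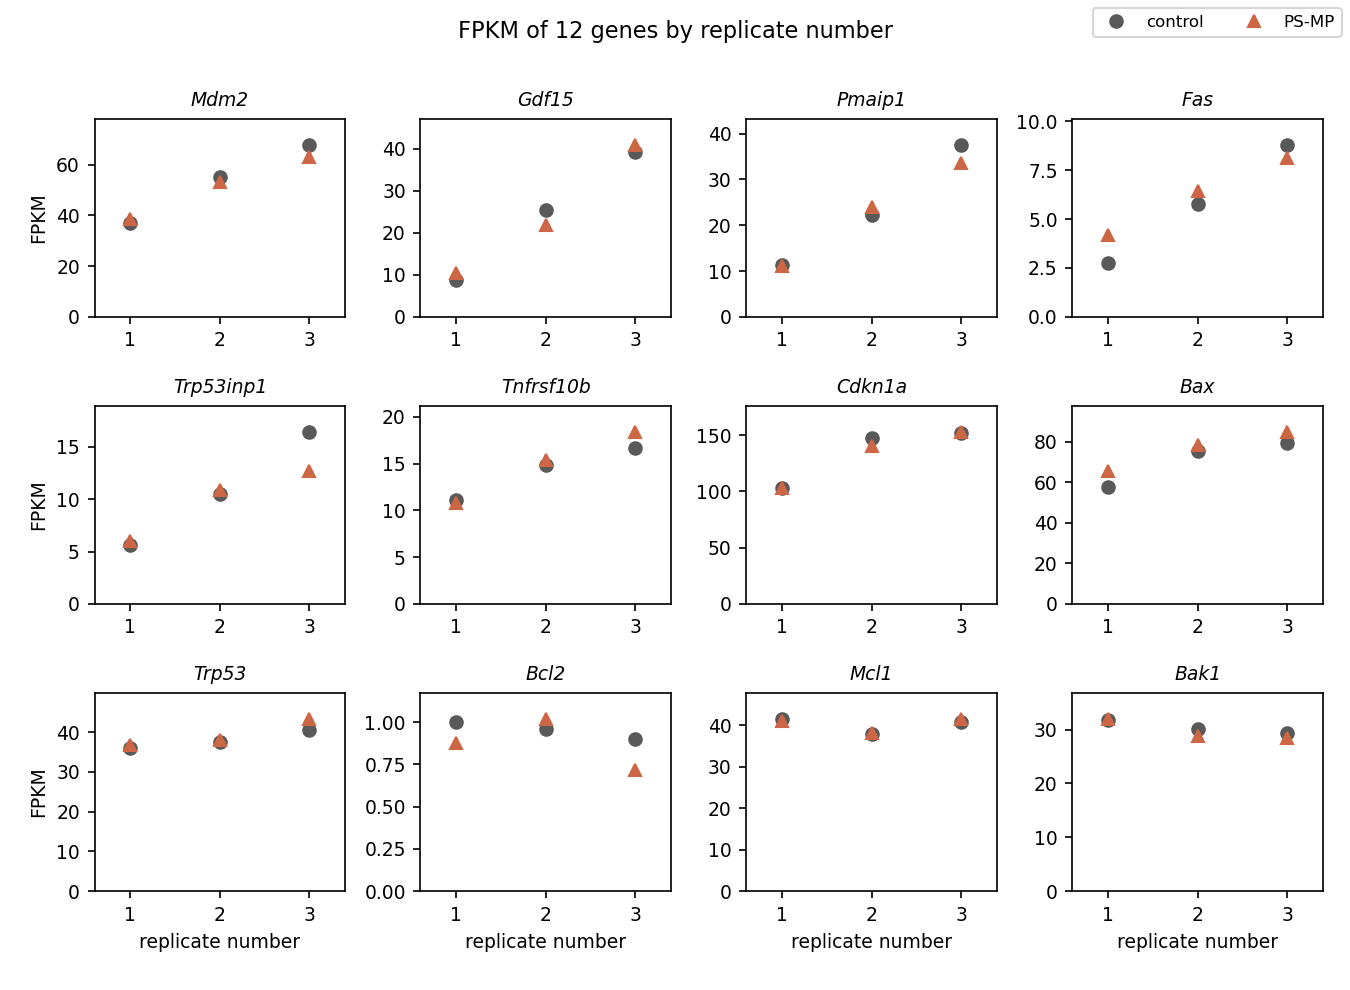
FPKM (linear axis from 0) of 12 genes by replicate number, with control as circles and PS-MP as triangles, 1 library per symbol. Gdf15, Pmaip1, Fas, Trp53inp1 and Mdm2 stand apart between numbers with both groups at similar levels, whereas Mcl1 and Bak1 stay within 37.9 to 41.5 and 28.5 to 32.0 FPKM.

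Other targets differed by less than 1.5-fold or, as Perp did, did not pass by adjusted p. By adjusted p alone, 12 of the 17 targets and 2 of the 10 core genes differed between the numbers, all 14 of them higher in number 3 than in number 1, against 14.9% of all tested genes in either direction and 8.38% in that one. Among these 12 targets Cdkn1a lay closest below the fold threshold and Tnfrsf10b closest above it. Cdkn1a was 1.48 times as high in number 3 as in number 1 (log2 0.56 ± 0.06, SE, with an adjusted p of 0.0014, edgeR), and Tnfrsf10b 1.61 times. For Cdkn1a most of the difference lay between numbers 1 and 2, as it did for Ccng1 (0.45 ± 0.08 for 3 against 1), Btg2 (0.46 ± 0.06) and Bax (0.41 ± 0.06). Phlda3 (0.45 ± 0.06) and Eda2r, a receptor of ectodysplasin A2 (0.35 ± 0.08; adjusted p = 0.0491), completed the 12. The count of members was 14 with all libraries, 8 without control 1 and 8 without PS-MP 1.

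Of the other 5 targets, Bbc3, the BH3-only protein Puma, was at 4.26 and 4.17 FPKM in the libraries numbered 1 and at 5.40 to 6.30 FPKM in the other 4. It missed the threshold with all libraries (0.47 ± 0.13; adjusted p = 0.0675, edgeR) and was called without control 3 (0.62; 0.0332), as was Cdkn1a (0.60; 0.000801). Ccng1 was called without PS-MP 3 (0.60; 0.000563). Zmat3, an RNA-binding protein, and Aen, a nuclease, ran from 12.3 to 13.8 and from 20.4 to 23.0 FPKM and did not pass (adjusted p = 0.259 and 0.431). Zmat3 holds the only element without a base outside the consensus, printed above. Gdf15, Cdkn1a and Ccng1 hold elements with 1 such base. Gdf15 was the target with the largest difference, while Cdkn1a and Ccng1 stayed below 1.5-fold with all libraries. The other targets called between the numbers had no match in their windows. A link between elements and differences was not tested. Sesn1 was at 2.33 to 2.92 FPKM without order by number (adjusted p = 0.722). Perp was the only target with a lower value in number 3 than in number 1 by over 0.5 in log2 (-0.58 ± 0.21). Its difference between numbers 3 and 2 was above 1.5-fold (-0.62), but it did not pass (adjusted p = 0.133, edgeR). In log2 CPM both libraries numbered 1 lay below the other 4 in 15 of the 17 targets, all but Sesn1 and Perp, in 2 of the 10 core genes and in 20.7% of all tested genes. In FPKM the counts were 14 targets, without Aen, 2 core genes and 19.0% of all tested genes.

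**Figure D4:**
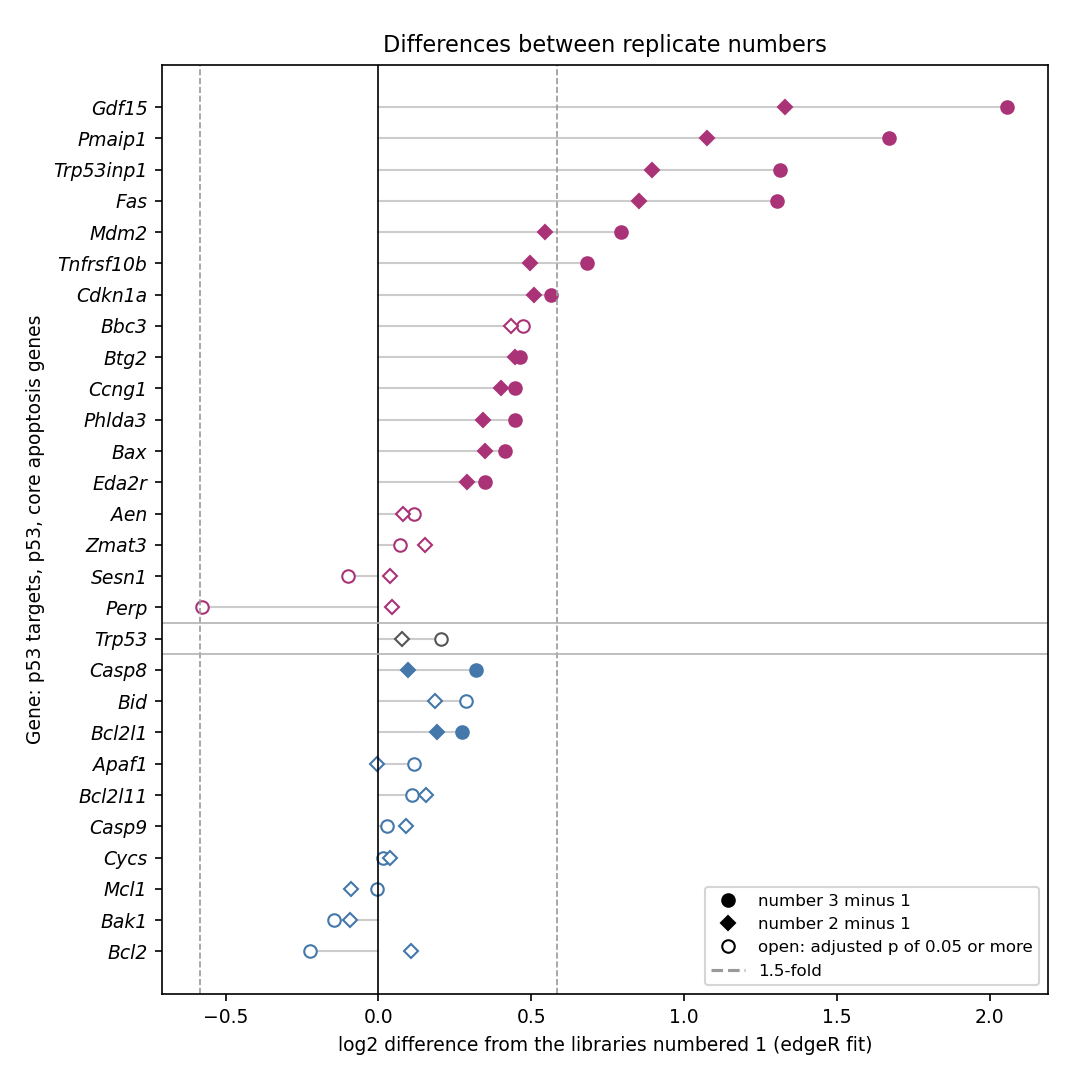
log2 difference of the libraries numbered 3 (circles) and 2 (diamonds) from those numbered 1 for each of the 28 genes, from the edgeR fit with treatment as a term; filled symbols have an adjusted p under 0.05 in the F-test over the 3 numbers and dashed lines mark 1.5-fold. The p53 targets reach 2.06 while the core apoptosis genes stay between -0.22 and 0.32.

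The core caspase and Bcl2 families were flatter. Their guardians did not share a pattern: Bcl2l1 was at 31.8 and 31.3, at 36.4 and 34.5, and at 38.6 and 37.8 FPKM in the libraries numbered 1, 2 and 3 (0.27 ± 0.06, SE; adjusted p = 0.0364, edgeR), whereas Mcl1 was at 41.5 and 41.0, at 37.9 and 38.2, and at 40.7 and 41.5 FPKM (-0.00 ± 0.06; adjusted p = 0.498). The effector Bak1 ran from 28.5 to 32.0 FPKM and was highest in the libraries numbered 1 (-0.14 ± 0.06; adjusted p = 0.282), unlike the other effector, Bax. The BH3-only genes Bid, which links death receptors to mitochondria, and Bcl2l11, which encodes Bim, had log2 differences of 0.29 ± 0.14 and 0.11 ± 0.07 (adjusted p = 0.40 and 0.289). The apoptosome genes ran level: Apaf1 at 5.12 to 5.83, Casp9 at 2.31 to 2.57 and Cycs at 26.5 to 31.6 FPKM (adjusted p = 0.405, 0.819 and 0.941). The calls of Casp8 (adjusted p = 0.0452) and Bcl2l1 by adjusted p alone lay close to the threshold, and 0 core genes passed without control 1, control 2, PS-MP 1 or PS-MP 2. When Bax, Bbc3 and Pmaip1, which are Bcl2 family genes as well as p53 targets, are set beside the core genes, their log2 differences between numbers 3 and 1 (0.41, 0.47 and 1.67) lay above those of Bid, Bak1, Bcl2, Bcl2l1, Bcl2l11 and Mcl1 (-0.22 to 0.29). The difference between the lists was not tested.

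The variance of log2 CPM was summed over the genes of a list, so genes with large differences, such as Gdf15, weigh most. In the 17 targets 96.0% of it went with the replicate number, 0.794% with treatment and 3.24% with neither. This is not the share of each target, since Sesn1, Zmat3 and Aen, among others, did not pass between the numbers. In the 10 core genes the shares were 65.3%, 15.7% and 19.0%, and over the 9297 genes above 10 CPM 78.0%, 7.66% and 14.4%. Treatment has 1 degree of freedom and the number and the remainder 2 each.

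Ratios within a library do not depend on scaling between libraries. Bax exceeded Bcl2 58.1, 78.6 and 88.5 times in FPKM in controls 1, 2 and 3, and 74.6, 77.2 and 119 times in PS-MP 1, 2 and 3. The groups overlapped, with a mean log2 ratio of 6.21 ± 0.31 without and 6.46 ± 0.37 with particles (SD over 3 libraries each). Bax exceeded Bcl-xL (Bcl2l1) 1.82, 2.07 and 2.07 times in controls 1, 2 and 3, and 2.09, 2.28 and 2.25 times in PS-MP 1, 2 and 3. Here the groups did not overlap and the PS-MP library was higher in each pair, by a narrow margin between PS-MP 1 and controls 2 and 3 (mean log2 ratio 0.99 ± 0.11 without and 1.14 ± 0.07 with particles, SD over 3 libraries each). This ratio, like the next, was chosen after the values were seen and was not tested. How often ratios of other gene pairs separate the groups was not counted. The ratio of Pmaip1 to its partner Mcl1 was 0.273 and 0.270 in the libraries numbered 1, 0.586 and 0.630 in those numbered 2 and 0.924 and 0.811 in those numbered 3. It followed the number and not the treatment, since Mcl1 varied little.

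Other genes of both pathways were described from lists that hold no member. Of 37 other p53 pathway genes 35 were tested and 0 were called with PS-MP (median log2 fold change -0.05, 11 positive and 24 negative). Over all tested genes 8594 were positive and 8592 negative, and the sign counts were not tested. Between replicate numbers 8 were called (22.9%, against 7.34% of all tested genes), 7 of them higher in number 3 than in number 1. By adjusted p alone 18 passed (51.4%, against 14.9% of all tested genes), or 7 without control 1 and 8 without PS-MP 1. Ephx1, an epoxide hydrolase, was at 22.6 and 25.3, at 36.8 and 38.0, and at 51.9 and 49.9 FPKM in numbers 1, 2 and 3 (1.09 ± 0.07, SE; adjusted p = 0.000386, edgeR). Dcxr, a xylulose reductase (1.69 ± 0.13), Gadd45a, a growth arrest and repair factor (1.09 ± 0.13), Pidd1, which activates caspase 2 (0.67), and Ddb2, a sensor of ultraviolet damage (1.37 ± 0.31; adjusted p = 0.0451), lay in the same direction. So did Cd80, a costimulatory ligand (1.91 ± 0.11), and Tap1, a peptide transporter (1.00 and 1.25, 3.15 and 4.71, and 4.82 and 5.55 FPKM), both of which are also known as immune response genes. Chek1, the replication checkpoint kinase, went the other way (-0.65 ± 0.12; adjusted p = 0.0197). The kinase Plk2 passed by adjusted p alone (0.47 ± 0.06), and Rps27l, the most abundant of the list with it, did not pass (adjusted p = 0.152). With PS-MP the lowest unadjusted p values belonged to Atm, the damage kinase, and Trp53bp1 (log2 fold changes -0.16 ± 0.10 and -0.12 ± 0.08), and neither was called. With the replicate number as a block the lowest was that of Tap1, whose PS-MP library exceeded the control in each of the 3 pairs. Its log2 fold change was 0.35 ± 0.09 (SE), with an unadjusted p of 0.00601 and an adjusted p of 0.884 (edgeR). In that fit 2 of the 35 genes (5.71%), Tap1 and Trp53bp1, had an unadjusted p under 0.05, against 4.94% of all tested genes. Trp63 and Trp73, the relatives of p53, did not exceed 0.00310 and 0 FPKM.

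Of 33 other apoptosis genes 31 had a row, 26 were tested and 0 were called with PS-MP (median 0.04, 18 positive and 8 negative). Their sign counts were not tested either. Casp2 (0.15 ± 0.12) and Cflar, an inhibitor of caspase 8 (-0.08 ± 0.07), had the lowest unadjusted p values. Between replicate numbers 1 was called (3.85%, against 7.34% of all tested genes), or 0 without control 1. This gene, Mlkl, the executor of necroptosis, was at 9.77 and 10.5, at 12.1 and 13.9, and at 18.2 and 16.0 FPKM (0.75 ± 0.10, SE; adjusted p = 0.00696, edgeR). By adjusted p alone 3 passed (11.5%, against 14.9% of all tested genes), Mlkl, Parp1 (-0.35 ± 0.06) and Aifm1 (-0.33 ± 0.07). Parp1 and Aifm1 were lower in number 3, and 6.56% of all tested genes passed by adjusted p in that direction. The 3 became 0 without control 1 and 1 without PS-MP 1. Ripk3, the kinase above Mlkl, and Tnfrsf1a, a TNF receptor, were the most abundant and ran level (53.6 to 58.0 and 49.1 to 54.2 FPKM).

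Some markers of other cell types differed between the replicate numbers too. Over all tested genes 7.34% were called and 14.9% passed by adjusted p alone, 6.56% of them all with number 3 below number 1. Of 7 tested surface epithelium markers 6 were called between the numbers, all lower in number 3. The 8 genes of that list summed to 28.7 and 33.0 FPKM in control 1 and PS-MP 1, to 10.6 and 10.5 FPKM in the libraries numbered 2 and to 4.14 and 4.17 FPKM in those numbered 3. Of 7 smooth muscle and pericyte markers 3 were called, and the sum was 3459 and 3649, 3304 and 3234, and 2684 and 2426 FPKM. Of 6 fibroblast markers 3 were called, 2 of them lower in number 3. Of 9 tested granulosa markers 2 were called, Fst and Star, both lower in number 3. Of 3 tested endothelial markers 1 was called, Kdr, lower in number 3, while the median log2 difference of numbers 3 and 1 over those 3 genes was 0.75. The endothelial list summed to only 0.133 to 0.399 FPKM per library, so these values lie near the floor. Of 6 markers of cycling cells 0 were called, but 4 passed by adjusted p alone, Ccnb1, Cdk1, Mki67 and Top2a, all lower in number 3 and thus opposite to the targets (list median -0.42, summed FPKM 171 and 188, 153 and 180, and 153 and 163 in numbers 1, 2 and 3). Mki67 ran from 8.81 to 13.8 FPKM (-0.57 ± 0.10, SE; adjusted p = 0.0159, edgeR). By adjusted p alone 3 granulosa, 5 smooth muscle and pericyte, 5 fibroblast, 6 surface epithelium and 1 endothelial marker passed, of which 2 fibroblast markers were higher in number 3. Leukocyte and oocyte markers had 0 calls among 3 and 1 tested genes, and no marker with a row was at 0 in all libraries. The part of these cell types in the differences between p53 target levels was not tested.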

How the data were processed

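The submitters' processing notes name cutadapt 1.9 for trimming, HISAT2 2.2.1 for alignment (build GRCm39) and StringTie 2.1.6 for quantification. Per the file headers, each gene row holds an FPKM and a count for every library. The annotation version, the making of the counts and their strand setting are not given in the sources used here. In the deposited estimated counts the value 4 occurs 6687 times, 3 occurs 3161 times and 5 occurs 2040 times, an excess at multiples of 4, which is why they are called estimated; all are whole, so rounding altered none. The main sheet holds 12 further columns of per-library values under other names, which were not used (from column names it cannot be told for certain which set is that of the series). No pair of libraries was identical (chi-square per degree of freedom 14.5 to 145).

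Models were fitted with edgeR 4.0.16 under R 4.3.3 (TMM, filterByExpr, quasi-likelihood test, two-sided) over all 6 libraries and 17186 genes, with treatment as the only term; replicate numbers were tested by an F-test in a fit with treatment. The thresholds of 0.05 and 1.5-fold are those the series' design text gives. Alternatives were DESeq2 1.42.0, limma 3.58.1 (voom, and trend on log2(FPKM + 0.1)), other filters and scaling, counts divided by 4, a replicate block and left-out libraries. Fits were also run on simulated counts with set fold changes. Those for treatment held no differences between replicate numbers, unlike the data, so the check does not show which changes would be found here. Members, lists and tests were chosen with earlier results of these data known. The rule for named genes took all members, up to 4 called genes of each other list or, with fewer than 2 called, its 2 most abundant genes and the 2 with the lowest unadjusted p, and 7 defining markers. Other names in those lists and markers, and the ratios of Bax to Bcl2l1 and Pmaip1 to Mcl1, were chosen after their values were seen.

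As a check of pairing, each library was centred on its group mean in the 9297 genes with a mean over 10 CPM (depth-corrected counts). Control and PS-MP libraries of the same number then had correlations of 0.81, 0.21 and 0.67. All exceed 0.1, the bar used for treating the numbers as pairs. The bar cannot decide the pairing, because some libraries of different numbers passed it too. PS-MP 2 gave 0.38 against control 3, above its 0.21 against control 2, while PS-MP 3 gave 0.14 against control 2. Only number 1 stood apart, as its libraries had negative correlations with those of other numbers (-0.80 to -0.23). The block therefore rests on the shared numbers and not on this check. The labels do not state a pairing.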

Additional observations from a re-analysis of the deposited data

How the results depend on the processing

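Members called with PS-MP, other p53 pathway genes called and other apoptosis genes called stayed at 0 under all alternatives run. Over all genes the count of 0 became 1 with the replicate block and 1 with DESeq2, 0 to 1 with single libraries left out, and 1 to 15 with the block and 1 pair left out (1 without pair 1, 15 without pair 2, 9 without pair 3). The block changed no other call. The median log2 fold change of the targets ran from -0.15 to 0.12 with single libraries left out and from -0.03 to 0.01 with the block and a pair left out, that of the core genes from -0.02 to 0.03 and from -0.00 to 0.05; each stayed within the spread between libraries. The difference in the log2 ratio of Bax to Bcl2 (0.25) ran from 0.04 to 0.38 with a library left out. Genes called between replicate numbers were 743 with no filter (more genes tested), 726 above 10 CPM (fewer genes tested), 731 to 1453 with a library left out and 2568 by adjusted p alone, a threshold added after the data were seen. Members called between numbers were 6 to 8 with a library left out and 14 by adjusted p alone; the 6 called with all libraries were called under every alternative run. For single members, 0 of 474 alternative treatment values gave a call, with 473 classed as the same and 1 as moved. Of 334 alternative values between the numbers, 319 were classed as the same, 12 as moved and 3 as stronger, the last being the added calls of Bbc3, Cdkn1a and Ccng1. A change of sign within the spread of an uncalled value was not counted as a reversal. With 3 libraries a group, an exact permutation test cannot go below p = 0.10, and 2 libraries a number limit the precision of the differences between numbers.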
